A study of Mus musculus with 20 samples.

Results

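The comparison described here asked whether the genotype of the donor mice, RNY1+/+ or RNY1-/-, acted on recipient macrophages in the same direction through the vesicle fraction and through the protein fraction of inflamed airway fluid. For each gene, the genotype effect is the log2 ratio of RNY1-/- over RNY1+/+ within a fraction, and the interaction is the effect with ProteinFx minus the effect with EVFx. A positive interaction means a genotype effect that is more positive with ProteinFx. The genes were not picked by hand. Of 78317 genes listed, the 10442 with a mean of at least 3 CPM (counts scaled to a common library total) over 16 of the 20 libraries were tested, from 3.002 CPM at the lowest gene kept to 2.9987 CPM at the highest gene left out. Of those left out, 45470 had no count in any of the 16 libraries and 22405 had a count in at least 1.

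Bone marrow-derived macrophages (BMDMs) of female C57BL/6J mice, wild type in all groups, were plated at 200000 cells per well and treated on day 7 of culture. They received PBS, RNY1+/+ EVFx, RNY1-/- EVFx, RNY1+/+ ProteinFx or RNY1-/- ProteinFx (n = 4 libraries each). Donor mice had ovalbumin-induced airway inflammation, and RNY1-/- donors carry a CRISPR deletion of the RNY1 locus. EVFx, the pooled early eluate of size exclusion chromatography that holds extracellular vesicles, was added at 35000000 particles per µL. ProteinFx, the late eluate, was added at 0.75 µg protein per µL, and both had been kept refrigerated for 5 days. The 2 fractions were matched on different quantities, so a level with EVFx and a level with ProteinFx were not compared as doses. All libraries carry 1 batch label, and it is not stated if the replicates of a group had fluid pools or macrophage donors of their own, so that p-values measure the spread between these libraries, which may be technical. The length of treatment is not stated either.

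Y RNAs are small noncoding RNAs bound by the proteins Ro60 and La, and they are abundant outside cells, in vesicles and in protein particles. Macrophages sense foreign and endogenous RNA through endosomal Toll-like receptors and cytosolic helicases, and they respond with nuclear factor kB (NF-kB) targets such as chemokines and interleukins, and with interferon-stimulated genes. The same cells present antigen on MHC class II, degrade engulfed material in lysosomes and shift between oxidative and glycolytic metabolism when they are activated. Genotype effects of equal size and sign in both fractions give an interaction of 0.

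Total counts in the 16 libraries ran from 2510005 to 8277366. The gene deleted in the donors was hardly measurable in the recipients: Rny1 is listed under 2 identifiers that share reads, and each held 1, 1.5, 1 and 1 counts in RNY1+/+ EVFx libraries 1 to 4. In the other 16 libraries of the series, each Rny1 identifier had either 0 or 0.5 counts, with 0.5 in 1 library each of RNY1-/- EVFx, RNY1+/+ ProteinFx and RNY1-/- ProteinFx. All of these lie under the floor of 3 counts, the library preparation selects polyadenylated RNA, and no difference in Rny1 could be read at this depth. Macrophage markers were high throughout (8 of 8 tested, with a summed level of 8620 to 10800 CPM), while 5 of 6 T cell, 3 of 4 B cell, 4 of 4 mast cell, 4 of 4 dendritic cell and 3 of 3 erythroid markers had a mean below 1 CPM. Neutrophil markers summed to 144 to 356 CPM over the 16 libraries, from S100a8 and S100a9, while Ly6g, Mpo and Elane stayed at or below 0.251 CPM. Fibroblast markers summed to 10.8 to 39.5 CPM. Eosinophil markers summed to 0.801 to 2.46 CPM with EVFx and 12.4 to 21.1 CPM with ProteinFx, mostly from Ccr3, while Epx had 0 counts. The part of these cells in the results was not tested. Of the epithelial markers, the lung genes Scgb1a1 and Sftpc had 1 and 0 counts over the 16 libraries, while Krt8 and Krt18 averaged 4.9 and 7.55 CPM. Bulk RNA cannot tell fewer cells of a type from less RNA per cell.

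Libraries 1 and 2 of RNY1-/- ProteinFx stood apart from libraries 3 and 4. Across genes, the deviation of a library from the mean correlated with transcript GC content at Spearman's rho 0.18 and 0.23 in libraries 1 and 2 and at -0.45 and -0.40 in libraries 3 and 4 (a description across genes, which share each library). The biological coefficient of variation was 17.4% in RNY1-/- ProteinFx against 9.92% to 10.5% in the other fraction groups. It was not computed for PBS. Some genes had PBS libraries 1 and 2 above 3 and 4 as well, such as Ctsd (5820, 5880, 2090 and 3660 CPM). Others did not, such as Mx1 (15, 17.6, 18.5 and 17.1 CPM). RNY1+/+ EVFx libraries had rho from 0.38 to 0.57, and RNY1-/- EVFx libraries from -0.35 to -0.046. The genotype effect with EVFx ran with GC content across genes (rho = -0.647), the effect with ProteinFx much less (rho = 0.166), and the interaction followed the former (rho = 0.585). Results were also computed with length and GC trends removed and without each pair of libraries. Of 127 named genes with a called interaction, 73 were not called without RNY1-/- ProteinFx 1 and 2.

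**Figure D1:**
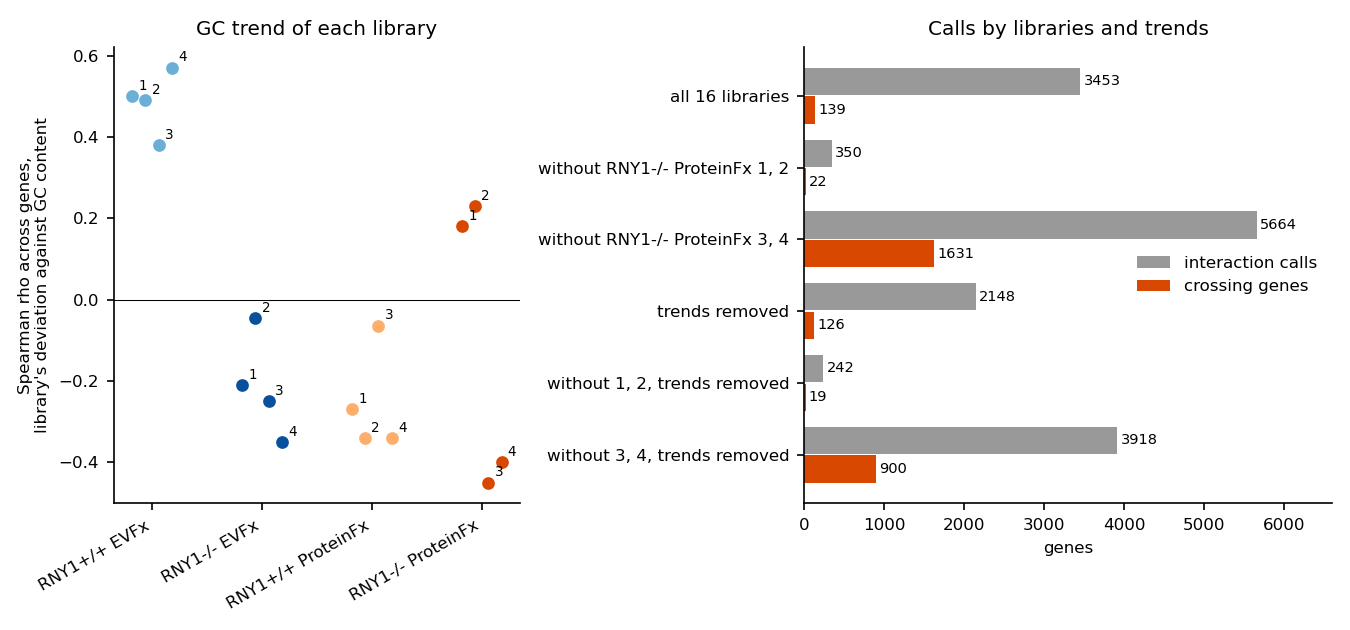
Left, Spearman's rho across genes between each library's deviation and transcript GC content, with the replicate number beside each point, where the RNY1-/- ProteinFx libraries fall into a pair near 0.2 and a pair below -0.39. Right, numbers of genes with a called interaction (grey) and of crossing genes (orange) with all libraries, without each pair and with the trends removed, where the calls range from 242 to 5664.

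The genotype effect differed between the fractions for 3453 of 10442 genes (33.1%) at an adjusted p under 0.05 (edgeR's quasi-likelihood test, Benjamini-Hochberg). The interaction was positive for 1754 of them (16.8% of genes tested) and negative for 1699 (16.3%). With a difference above 1 on the log2 scale as well, 814 genes (7.8%) passed, 557 positive and 257 negative. These counts depended on the pair of libraries named above: without RNY1-/- ProteinFx 1 and 2, 350 of 10403 genes (3.36%) were called, and without libraries 3 and 4, 5664 were called. Of the 3435 called genes that were tested without libraries 1 and 2, 3434 kept the sign of the interaction and 345 kept the call. With length and GC trends removed, 2148 of 10118 genes (21.2%) were called, and 1576 of the 3364 called genes with a known length kept call and sign.

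Within the fractions, the same fit called the genotype effect for 4668 genes (44.7%) with EVFx and for 1020 (9.77%) with ProteinFx. The median absolute effect was 0.327 with EVFx and 0.173 with ProteinFx on the log2 scale. For 2429 of the 3453 called interactions the effect passed with EVFx alone, and for 442 with ProteinFx alone, of which 287 were lower and 155 higher in RNY1-/-. In 421 genes neither effect passed. Both effects passed with the same sign in 22 genes, and in 22 of 22 the effect with ProteinFx was the larger (17 lower and 5 higher in RNY1-/-). Effects in the 2 fractions share no library, and across the 10442 genes they correlated at rho = -0.16, or -0.0567 with trends removed.

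Signs were opposite in 2997 of the 3453 called genes, a larger share than the 5987 of all 10442 genes (57.3%). Genes that were both called and of opposite sign made up 28.7% of genes tested. An interaction is larger where the effects point apart, so the share among the calls follows from the choice and is given as a description. A stricter set, called crossing genes below, also had an adjusted p under 0.05 within each fraction. There were 139 of them (1.33% of genes tested): 59 were higher in RNY1-/- with ProteinFx and lower with EVFx, and 80 were the reverse. Of the 139, 123 are protein coding. Because the rule picks them for opposite effects, their effects are given as values and their crossing is not tested again. The smallest interactions among them were 0.62 and 0.58 in absolute size.

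**Figure D2:**
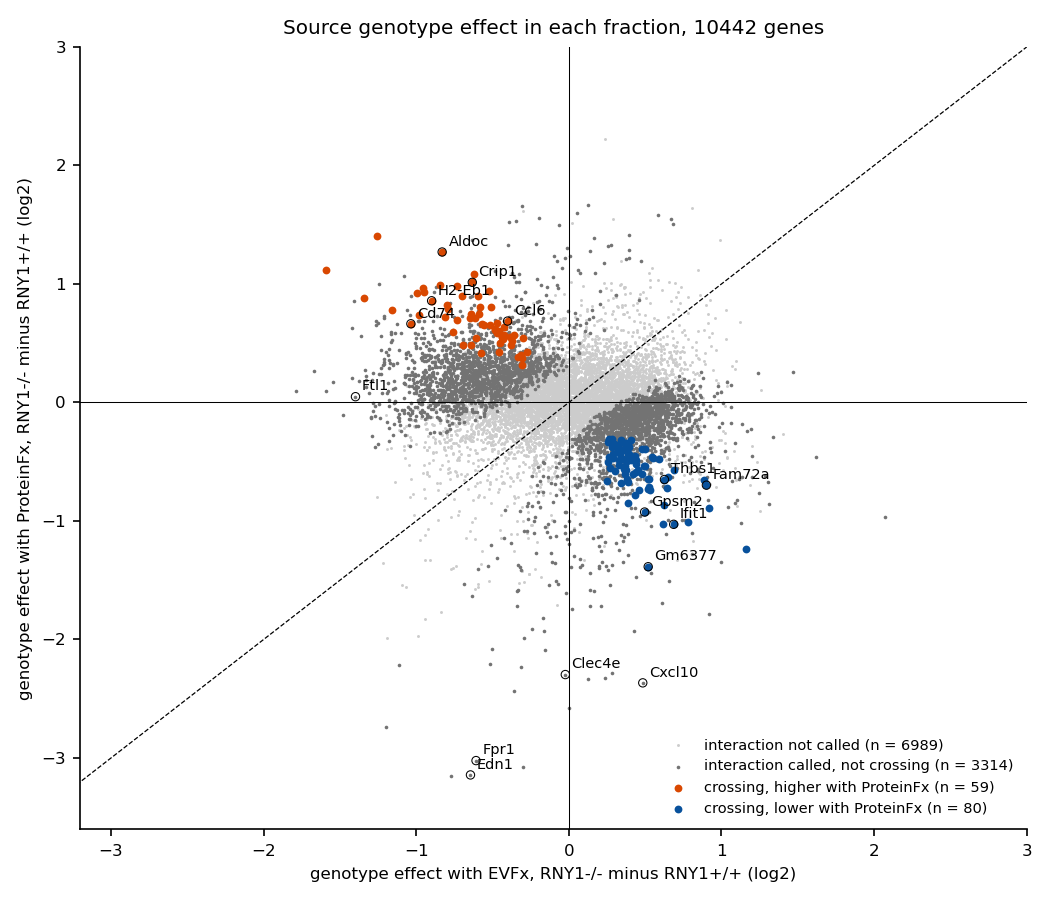
Genotype effect (log2, RNY1-/- minus RNY1+/+) with EVFx on the horizontal axis and with ProteinFx on the vertical axis for 10442 genes, where the dashed line marks equal effects. Crossing genes lie in the upper left (59, orange) and lower right (80, blue), and Clec4e, Cxcl10, Fpr1 and Edn1 lie far below the line, between -2.30 and -3.14 with ProteinFx.

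In 429 genes (4.11% of genes tested) the 4 RNY1-/- and the 4 RNY1+/+ libraries did not overlap in CPM in either fraction, and 50 of the 139 crossing genes were among them. Of the crossing genes, 96 stayed called without RNY1-/- ProteinFx 1 and 2, and 136 kept opposite signs there. Of the 136 with a known length, 118 kept the interaction call and both signs with trends removed. The number of genes that met every condition of the set anew moved more, to 22 without libraries 1 and 2 and to 1631 without libraries 3 and 4. A narrower set of 31 genes had at least 10 CPM, no overlap in either fraction and the call and signs kept with trends removed. The 10 with the largest interaction in each direction are described next, and 28 of the 31 stayed called without libraries 1 and 2. Removal of the trends kept their signs but took most of the EVFx effect from some, such as Gm6377 (0.52 to 0.01), Ckb (-0.58 to -0.03), Lims1 (0.40 to 0.05) and Rab10 (0.25 to 0.06). Of the 139 crossing genes, 51 met every condition of the set in that fit.

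The 59 crossing genes that were higher in RNY1-/- with ProteinFx and lower with EVFx had a median GC content of 54%, beside 48.5% over all genes, and a median level of 19.6 CPM. They included an MHC class II chain, a chemokine, an integrin and a creatine kinase. H2-Eb1 (ENSMUSG00000060586, chr17:34305867-34316674 on GRCm38), a beta chain of MHC class II, had 9.18, 11.8, 11.2 and 17.2 CPM in RNY1+/+ EVFx and 6.04, 6.4, 6.16 and 6.73 CPM in RNY1-/- EVFx. With ProteinFx it had 9.28, 6.59, 9.05 and 8.85 CPM in RNY1+/+ and 21.9, 17.8, 11.6 and 12.7 CPM in RNY1-/-. The genotypes did not overlap in either fraction and changed order between them. The effects were -0.90 (standard error 0.20) and 0.86 (0.20), and the interaction was 1.76 (0.29, edgeR adjusted p = 0.0016).

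Crip1 (ENSMUSG00000006360), a small LIM-domain protein, had 33.6, 31.2, 34.2 and 44.5 CPM in RNY1+/+ EVFx and 24.4, 21.7, 21.4 and 20.5 CPM in RNY1-/- EVFx. With ProteinFx, the RNY1+/+ libraries had 54.6, 35.7, 68.1 and 35.5 CPM and the RNY1-/- libraries 139, 124, 70.5 and 78.8 CPM. The lowest RNY1-/- ProteinFx library thus exceeded the highest RNY1+/+ library by little, and libraries 1 and 2 were well above 3 and 4. The interaction was 1.65 (0.29, edgeR adjusted p = 0.0021), and 1.25 without libraries 1 and 2. PBS libraries had 220 to 436 CPM, above every fraction-treated library.

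Ccl6 (ENSMUSG00000018927), a CC chemokine made by resident macrophages, had 153, 113, 114 and 159 CPM in RNY1+/+ EVFx and 106, 96.7, 96.1 and 90.5 CPM in RNY1-/- EVFx. With ProteinFx it had 326, 248, 374 and 265 CPM in RNY1+/+ and 660, 584, 381 and 459 CPM in RNY1-/-. The genotypes again changed order without overlap, and the gap between the nearest libraries was small in both fractions. Its interaction was 1.09 (0.22, edgeR adjusted p = 0.0037), and it was 1.27 with trends removed. It was the only one of these 10 genes in which removal of the trends increased the interaction.

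The other 7 genes of this direction had mean levels from 10.7 to 35.7 CPM. Ckb, the brain-type creatine kinase, ran from 29.8 to 42.1 CPM in RNY1+/+ EVFx and from 18.4 to 26.7 in RNY1-/- EVFx, and from 18.7 to 24.8 in RNY1+/+ ProteinFx and from 29.1 to 54 in RNY1-/- ProteinFx. Tle5, a transcriptional corepressor of the Groucho family, had an effect of -0.79 with EVFx and 0.78 with ProteinFx, the most even of the 10. Itgb5, the integrin subunit beta 5, had -0.59 and 0.75, and Arhgap45, a GTPase-activating protein of blood cells, had -0.74 and 0.70. Supt4a, a subunit of the elongation factor DSIF, had -0.56 and 0.65. Pacs1, a sorting adaptor of the trans-Golgi network, had -0.52 and 0.66, and Nfam1, an immune receptor with a cytoplasmic activation motif, had -0.48 and 0.61. In all 10 genes, RNY1-/- ProteinFx libraries 1 and 2 were above libraries 3 and 4. Without libraries 1 and 2, the effects with ProteinFx in these 10 genes were still positive, from 0.22 (Pacs1) to 0.61 (Crip1), and the interaction of Pacs1 was not called (0.75, edgeR adjusted p = 0.072).

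The 80 genes of the reverse direction, higher in RNY1-/- with EVFx and lower with ProteinFx, had a median GC content of 43.7% and a median level of 131 CPM. They included a tetraspanin, a Rab GTPase, spindle and import factors and the sterol sensor Insig1. Tspan3 (ENSMUSG00000032324), a tetraspanin, had 1050, 985, 916 and 812 CPM in RNY1+/+ EVFx and 1230, 1130, 1180 and 1260 CPM in RNY1-/- EVFx. In the ProteinFx libraries it had 468, 478, 389 and 489 CPM with RNY1+/+ and 287, 269, 378 and 343 CPM with RNY1-/-. The genotypes did not overlap within a fraction, while EVFx levels were above ProteinFx levels throughout. The effects were 0.42 (0.12) and -0.60 (0.12), and the interaction was -1.02 (0.18, edgeR adjusted p = 0.0019).

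Rab10 (ENSMUSG00000020671), a small GTPase of vesicle transport to the plasma membrane, had 746, 765, 693 and 652 CPM in RNY1+/+ EVFx and 810, 830, 774 and 815 CPM in RNY1-/- EVFx. It had 526, 526, 476 and 574 CPM in RNY1+/+ ProteinFx and 338, 315, 391 and 369 CPM in RNY1-/- ProteinFx. The ProteinFx groups lay far apart relative to their spread, and the EVFx groups were close to touching (765 against 774 CPM). Its interaction of -0.91 (0.14, edgeR adjusted p = 0.0013) was -0.74 without libraries 1 and 2 and -0.70 with trends removed.

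Fam72a (ENSMUSG00000055184), which is known to antagonise the uracil glycosylase UNG2, had 17.6, 13, 11.1 and 11 CPM in RNY1+/+ EVFx and 23.5, 26.7, 20.4 and 23.6 CPM in RNY1-/- EVFx. With ProteinFx, RNY1+/+ libraries had 38.1, 45.6, 42.7 and 41.8 CPM and RNY1-/- libraries 19.5, 24.2, 34.7 and 34.8 CPM. Libraries 3 and 4 of the last group lay nearer to RNY1+/+ than libraries 1 and 2 did. The interaction was -1.60 (0.25, edgeR adjusted p = 0.0016) and -1.20 without libraries 1 and 2.

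Gm6377, a protein-coding gene on chromosome X had the largest interaction of this direction at -1.91 (0.23), with 23.1 to 29.2 CPM in RNY1+/+ EVFx, 32 to 41 in RNY1-/- EVFx, 44.7 to 70.9 in RNY1+/+ ProteinFx and 20.4 to 31.7 in RNY1-/- ProteinFx. Gpsm2, which orients the mitotic spindle, had effects of 0.50 and -0.92, and Kpna2, a nuclear import receptor, had 0.39 and -0.37. Plagl2, a zinc finger transcription factor, had 0.43 and -0.78. Ptprj, a receptor tyrosine phosphatase, had 0.41 and -0.49, and Lims1, an adaptor at integrin adhesions, had 0.40 and -0.44. In 9 of the 10 genes the RNY1-/- ProteinFx libraries 1 and 2 were both below libraries 3 and 4, with Kpna2 as the exception. Among crossing genes whose call or signs were not kept with trends removed, the 3 largest in each direction moved as follows. Tmem147, Chd3 and Gm13623 went from 0.85, 0.71 and 0.70 to 0.45, 0.39 and 0.24, and Herc6, Lnpk and Tmem243 from -1.06, -0.94 and -0.90 to -0.62, -0.43 and -0.36.

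**Figure D3:**
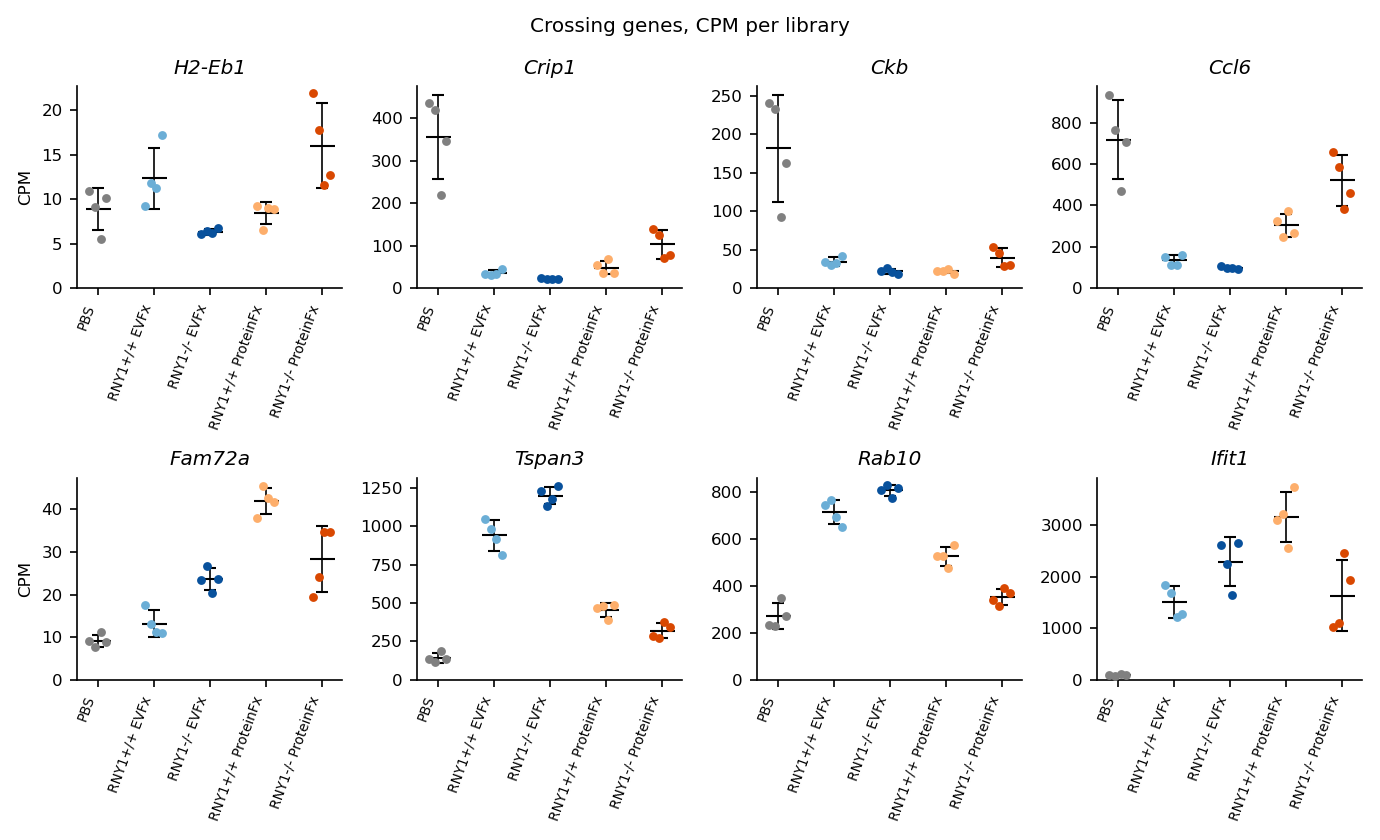
CPM in each library (points), with mean and SD per group (n = 4), for 8 crossing genes, where the top row is higher in RNY1-/- with ProteinFx and lower with EVFx and the bottom row is the reverse. The group means of the EVFx pair (light and dark blue) and of the ProteinFx pair (light and dark orange) are ordered oppositely in each panel, and the RNY1-/- ProteinFx libraries of Ifit1 run from 1030 to 2460 CPM.

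Insig1, another of these 10 genes, encodes a protein that holds the SREBP escort protein in the endoplasmic reticulum when sterols are plentiful. It had 381 to 453 CPM in RNY1+/+ EVFx, 461 to 530 in RNY1-/- EVFx, 312 to 340 in RNY1+/+ ProteinFx and 199 to 295 in RNY1-/- ProteinFx. Sqle, the squalene epoxidase, named after its values were seen, crossed in the same direction (0.34 and -0.40, interaction -0.75, edgeR adjusted p = 0.0032). Of 28 cholesterol synthesis and SREBP target genes tested, 9 had a negative and 7 a positive called interaction (57.1% called, beside 33.1% of all genes). Without RNY1-/- ProteinFx 1 and 2 it was 5 and 0, and with trends removed 8 and 2. With EVFx 13 of the list fell and 3 rose in RNY1-/-, where 44.7% of all genes passed. With ProteinFx 12 fell and 0 rose, where 9.77% passed. Values were negative in 21 of 28 genes with EVFx and in 22 of 28 with ProteinFx. Insig1 and Sqle, which were higher with EVFx, thus differed from most of the list. Hsd17b7, which acts late in synthesis, and the desaturase Scd1 had negative interactions (-1.05 and -1.14). Scd1 was not called without RNY1-/- ProteinFx 1 and 2 (edgeR adjusted p = 0.23).

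Of 70 interferon-stimulated genes tested, 4 crossed, the largest count of any list, beside 1.33% of all genes. By share, smaller lists such as MHC class II (2 of 6) and pattern recognition receptors (2 of 28) were higher. Of the 70, 29 had a negative and 4 a positive called interaction, against 16.3% and 16.8% of all genes. With ProteinFx, 27 fell and 1 rose in RNY1-/- (64 of 70 had a negative value), where 9.77% of all genes passed in either direction. With EVFx, 12 fell and 12 rose, and 35 of 70 values were negative, where 44.7% of all genes passed. The median effect was -0.367 with ProteinFx and 0.0044 with EVFx, beside 0.0151 and 0.00895 over all genes. With trends removed the list had 26 negative and 1 positive calls, and without RNY1-/- ProteinFx 1 and 2 it had 9 and 1.

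Ifit1 (ENSMUSG00000034459, chr19:34640871-34650009 on GRCm38), which binds foreign RNA, had 1840, 1690, 1210 and 1270 CPM in RNY1+/+ EVFx and 2630, 2250, 1650 and 2660 CPM in RNY1-/- EVFx. With ProteinFx it had 3100, 3230, 2570 and 3750 CPM in RNY1+/+ and 1030, 1110, 2460 and 1940 CPM in RNY1-/-. PBS libraries had 71.7 to 112 CPM. The genotypes overlapped with EVFx, where RNY1-/- library 3 lay below 2 RNY1+/+ libraries, and not with ProteinFx. The effects were 0.69 (0.24) and -1.03 (0.25), with an interaction of -1.72 (0.35, edgeR adjusted p = 0.0038) that was -1.24 without RNY1-/- ProteinFx 1 and 2. The other 3 crossing members, of which Ifih1 and Phf11d are named because the count is small and after their values were seen, had the same orientation. Ifih1, a cytosolic sensor of double-stranded RNA, had 0.44 and -0.59, Herc6, a ubiquitin-like ligase, had 0.39 and -0.67, and Phf11d had 0.38 and -0.65. With length and GC trends removed, the EVFx effects of these 3 were 0.12, -0.02 and 0.16, while those with ProteinFx were -0.56, -0.64 and -0.62.

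Cxcl10 (ENSMUSG00000034855), a chemokine for activated T cells, had the lowest interaction of all genes above 10 CPM, at -2.85 (0.47, edgeR adjusted p = 0.0016). It had 246, 207, 73.3 and 93.6 CPM in RNY1+/+ EVFx and 261, 245, 128 and 194 CPM in RNY1-/- EVFx, which overlapped. With ProteinFx it had 430, 581, 318 and 507 CPM in RNY1+/+ and 66.7, 71.2, 136 and 109 CPM in RNY1-/-, far apart. Only the effect with ProteinFx passed (-2.37, edgeR adjusted p = 0.00017), while that with EVFx was 0.48 (edgeR adjusted p = 0.22). Rsad2, an antiviral radical SAM enzyme, and Mx1, an antiviral GTPase, had the same shape, with effects of -1.40 and -1.27 with ProteinFx and of 0.20 and -0.12 with EVFx. Rsad2 kept its call without libraries 1 and 2, and Mx1 did not (edgeR adjusted p = 0.072). Ccl2, a monocyte chemokine, had 54.9 to 161 CPM in RNY1+/+ EVFx, 51.5 to 158 in RNY1-/- EVFx, 2230 to 3220 in RNY1+/+ ProteinFx and 949 to 1880 in RNY1-/- ProteinFx. Its interaction (-1.33, edgeR adjusted p = 0.038) was not called without RNY1+/+ EVFx 3 or 4, RNY1-/- EVFx 1, 2 or 4, RNY1+/+ ProteinFx 2 or 4, or RNY1-/- ProteinFx 1 or 2. It was not called either with the replicate block (edgeR adjusted p = 0.052), with DESeq2 (adjusted p = 0.053), with total counts, with all 20 libraries, with trends removed or without RNY1-/- ProteinFx 1 and 2. In both EVFx groups, libraries 1 and 2 were above libraries 3 and 4 for Cxcl10, Rsad2, Mx1 and Ccl2.

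The promoters of the crossing gene Ifit1 and of Cxcl10 are printed because interferon-stimulated genes share a known element, the interferon-stimulated response element, searched here as GAAANNGAAA on both strands. Each run is the 250 bases before a start listed by RefSeq on GRCm38.p6, written 5′ to 3′ on the gene's strand with matches in capitals, and the positions are chr19:34640639-34640888 (plus strand) and chr5:92348890-92349139 (minus strand).
Ifit1: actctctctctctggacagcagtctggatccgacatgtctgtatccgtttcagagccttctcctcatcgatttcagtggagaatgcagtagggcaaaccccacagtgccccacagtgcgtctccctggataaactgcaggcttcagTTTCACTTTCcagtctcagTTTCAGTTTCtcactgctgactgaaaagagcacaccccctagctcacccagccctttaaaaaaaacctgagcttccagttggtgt
Cxcl10: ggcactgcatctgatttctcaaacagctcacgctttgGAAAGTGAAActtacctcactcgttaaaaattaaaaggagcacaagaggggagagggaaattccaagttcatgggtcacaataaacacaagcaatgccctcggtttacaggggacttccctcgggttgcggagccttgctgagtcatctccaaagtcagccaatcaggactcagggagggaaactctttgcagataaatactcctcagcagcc
Ifit1 had 2 matches and Cxcl10 had 1. The element occurred in 26 of 55 interferon-stimulated genes with a promoter in the table (47.3%), in 11 of 23 of those with a negative called interaction (47.8%) and in 3.55% of the tested genes with a promoter (7441 of 10428 symbols). A match is a description of letters and not evidence of binding.

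NF-kB targets had mostly negative interactions. Of 52 tested, 25 had a negative and 1 a positive called interaction, against 16.3% and 16.8% of all genes, and none crossed. With ProteinFx 34 fell and 0 rose in RNY1-/- (9.77% of all genes passed), and with EVFx 19 fell and 3 rose (44.7% of all genes passed), with median effects of -0.954 and -0.322. For 18 of the 26 calls the effect passed with ProteinFx alone, and for 5 it passed in both fractions with the same sign. Those 5 were among the 22 such genes in the whole table. Without RNY1-/- ProteinFx 1 and 2 the list kept 13 negative calls, and with trends removed 24.

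Clec4e (ENSMUSG00000030142), the receptor Mincle for mycobacterial and dead-cell ligands, had 2730, 3090, 3290 and 3030 CPM in RNY1+/+ EVFx and 2490, 2480, 2810 and 3560 CPM in RNY1-/- EVFx. With ProteinFx it had 652, 785, 595 and 1230 CPM in RNY1+/+ and 156, 163, 210 and 182 CPM in RNY1-/-. The EVFx groups overlapped, and the ProteinFx groups were well separated, with 595 against 210 CPM in their nearest libraries. The effects were -0.02 (0.19) and -2.30 (0.20), with an interaction of -2.27 (0.27, edgeR adjusted p = 0.00019) that stayed called in each of the other fits. Fpr1, a receptor for formylated peptides, fell in both fractions, by 0.61 with EVFx and by 3.02 with ProteinFx on the log2 scale, and ran from 5.97 to 9.45 CPM in RNY1-/- ProteinFx against 34.9 to 93.3 in RNY1+/+ ProteinFx. Edn1, the endothelin 1 precursor, had an interaction of -2.50 at 10.3 CPM on average that was not called without RNY1-/- ProteinFx 1 and 2 (edgeR adjusted p = 0.056), and Cxcl3, a neutrophil chemokine, one of -2.56. The latter lost its call without RNY1+/+ ProteinFx 4, RNY1-/- ProteinFx 1 or RNY1-/- ProteinFx 2. Zfp811, a zinc finger gene outside the list, had 46.9 to 59.9 CPM over the 8 EVFx libraries, 8.92 to 21 in RNY1+/+ ProteinFx and 2.27 to 5.58 in RNY1-/- ProteinFx.

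**Figure D4:**
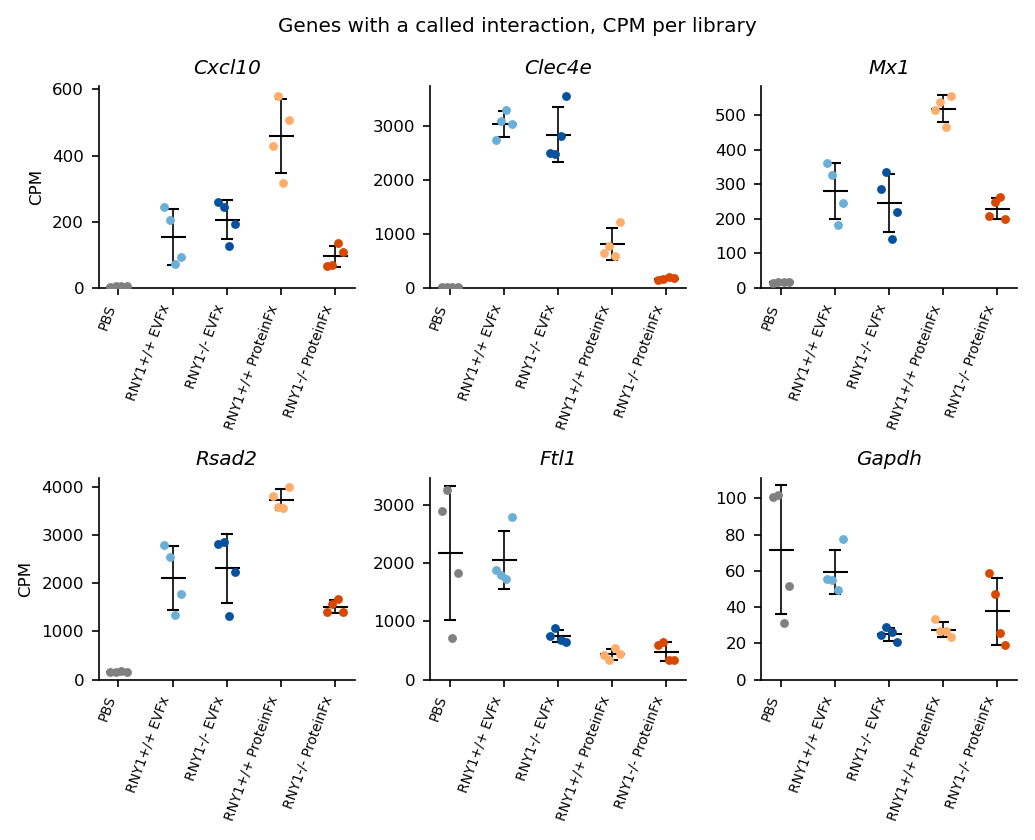
CPM in each library (points), with mean and SD per group (n = 4), for 6 genes with a called interaction that are not crossing genes. Cxcl10, Clec4e, Mx1 and Rsad2 differ by genotype with ProteinFx alone, while Ftl1 and Gapdh differ with EVFx alone.

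MHC class II genes had positive interactions. All 6 members tested, of 9 listed, had a positive called interaction, from 1.03 to 1.92, beside 16.8% of all genes. All 6 fell in RNY1-/- with EVFx, where 44.7% of all genes passed. The highest interaction, of H2-DMa, came from a mean of 3.59 CPM, with 0.246 CPM in RNY1-/- EVFx 3. With ProteinFx all 6 values were positive and 2 passed, Cd74 and H2-Eb1, which are the 2 crossing members. Cd74, the invariant chain, had 30.8 to 58.7 CPM in RNY1+/+ EVFx, 15.6 to 24 in RNY1-/- EVFx, 29.5 to 46.5 in RNY1+/+ ProteinFx and 44.6 to 75 in RNY1-/- ProteinFx, where the ProteinFx groups overlapped. The median interaction was 1.59, or 1.28 with trends removed, where 5 were called. Without RNY1-/- ProteinFx 1 and 2 the Cd74 and H2-Eb1 calls were the 2 that remained, H2-DMa was not tested there, and the median was 1.02. These genes are low in BMDMs, with summed levels of 45.1 to 93.2 CPM in PBS libraries.

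The H2-Eb1 promoter is shown because class II promoters carry a Y box, an inverted CCAAT element bound by NF-Y. The 250 bases before the start (chr17:34305617-34305866, plus strand, RefSeq on GRCm38.p6) held CCAAT on either strand at 2 places, in capitals.
H2-Eb1: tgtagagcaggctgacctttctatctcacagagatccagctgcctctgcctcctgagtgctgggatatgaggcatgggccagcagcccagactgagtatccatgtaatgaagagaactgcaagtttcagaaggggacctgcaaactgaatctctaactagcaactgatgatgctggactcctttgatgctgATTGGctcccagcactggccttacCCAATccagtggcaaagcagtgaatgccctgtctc
All 4 tested class II members with a promoter in the table held it, as did 40.4% of the tested genes with a promoter, so that a match to so short a motif is common.

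Genes of protein synthesis and energy metabolism had mostly positive interactions. Of 79 cytosolic ribosomal protein genes, 59 had a positive and none a negative called interaction, beside 16.8% and 16.3% of all genes. For 39 of the 59 the effect passed with EVFx alone. With EVFx 42 fell and 2 rose in RNY1-/-, where 44.7% of all genes passed. With ProteinFx 6 rose and 0 fell, where 445 of all 10442 genes rose and 575 fell (9.77% in either direction). Values with ProteinFx were positive in 77 of the 79 genes. The median effects were -0.338 and 0.253. Rplp0, of the ribosomal stalk, had 309 to 405 CPM in RNY1+/+ EVFx, 187 to 210 in RNY1-/- EVFx, 139 to 186 in RNY1+/+ ProteinFx and 184 to 318 in RNY1-/- ProteinFx, and crossed with Rps19 and Rpl10a (both named after their values were seen). Ribosomal protein genes have many processed pseudogenes that share reads with them, which leaves their counts less certain. With trends removed 45 were positive and 0 negative, and without RNY1-/- ProteinFx 1 and 2 it was 19 and 0.

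Of 19 glycolysis genes, 9 had a positive and none a negative called interaction (47.4% called, beside 33.1% of all genes). The median effects were -0.606 with EVFx and 0.315 with ProteinFx. With trends removed these medians were -0.21 and 0.259, and 8 interactions were called positive and 1 negative. Gapdh, which was not called without RNY1-/- ProteinFx 1 and 2 (edgeR adjusted p = 0.067), had 49.7 to 77.4 CPM in RNY1+/+ EVFx and 20.5 to 28.8 in RNY1-/- EVFx, and 23.5 to 33.4 and 19.3 to 58.7 in the ProteinFx groups, where libraries 1 and 2 had 58.7 and 47 and libraries 3 and 4 had 25.8 and 19.3. Tpi1, the triose phosphate isomerase, was split in the same way (125 and 101 against 40.4 and 37.3 CPM), and its effect with ProteinFx was 0.78 with all libraries and -0.15 without libraries 1 and 2. Aldoc, an aldolase with a mean of 6.1 CPM, was the crossing member (-0.83 and 1.27), though the genotypes overlapped in both fractions. Its call was lost without libraries 1 and 2 (edgeR adjusted p = 0.14). Without those libraries, 3 positive interaction calls were left in the list. Hypoxia-responsive genes, targets of HIF-1, had 5 positive and 0 negative calls of 18 (27.8%). Of all genes, 16.8% were called positive and 33.1% in either direction. Ndrg1, at 1.75, and Ankrd37, at 1.33, are examples. Of these 5 calls, 4 passed with ProteinFx alone. Without libraries 1 and 2, 0 of the list were called, and with trends removed 7 were positive and 0 negative. With ProteinFx 8 rose and 0 fell in RNY1-/-, where 9.77% of all genes passed in either direction.

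Nuclear genes of oxidative phosphorylation had 41 positive and 4 negative called interactions among 76 identifiers (59.2%, beside 33.1% of all genes). For 38 of the 45 the effect passed with EVFx alone. The median effect was -0.268 with EVFx and 0.155 with ProteinFx. Without RNY1-/- ProteinFx 1 and 2 the list had 6 positive and 0 negative calls, and with trends removed 25 and 3. Ndufv3, of complex I, had an interaction of 1.13 that stayed called in each of the other fits, and Atp5po one of 1.19 that did not. Among 15 mitochondrially encoded transcripts 0 were positive and 1 negative (6.67% called). Lysosome and V-ATPase genes had 19 positive and 3 negative calls of 42 (52.4%), such as the protease Ctsd (1.12) and the mannosidase Man2b1 (1.09). These counts were 3 and 0 without RNY1-/- ProteinFx 1 and 2, and 12 and 1 with trends removed. Laptm5, a lysosomal membrane protein, and Ucp2, a mitochondrial carrier, were among the 5 highest called interactions above 10 CPM (1.78 and 1.88). The ferritin pseudogene Ftl1-ps1 (1.88, not called without RNY1-/- ProteinFx 1 and 2) shares reads with Ftl1 (1.45), whose 1730 to 2800 CPM in RNY1+/+ EVFx stood against 649 to 887 in RNY1-/- EVFx while the ProteinFx groups overlapped.

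**Figure D5:**
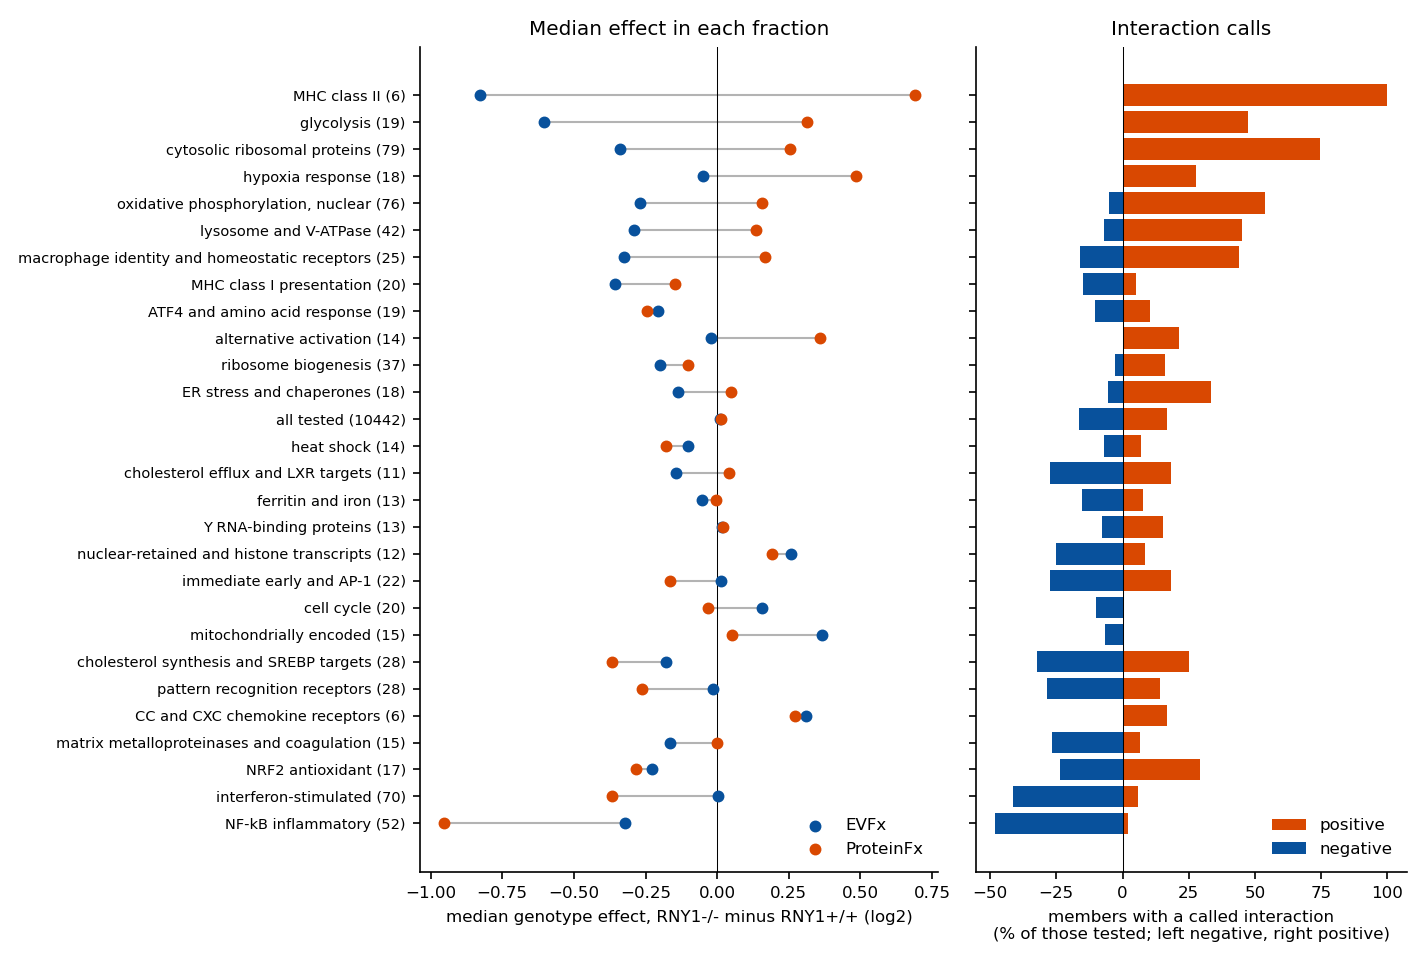
Left, median genotype effect (log2) with EVFx (blue) and ProteinFx (orange) in each gene list, with the number of members tested in brackets. Right, percent of members with a positive (orange) or negative (blue) called interaction, where MHC class II and ribosomal protein genes lie at 1 end, interferon-stimulated and NF-kB genes at the other, and all genes tested between them at 16.8% and 16.3%.

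Macrophage identity genes were mixed, with 11 positive and 4 negative calls of 25, 5 and 4 with trends removed, and 2 and 0 without RNY1-/- ProteinFx 1 and 2. The share called was 60%, beside 33.1% of all genes. It was 42.9% for pattern recognition receptors, 45.5% for immediate early, 21.4% for alternative activation and 16.7% for chemokine receptor genes, described next. Gas6, a ligand of the efferocytosis receptor MerTK, rose in RNY1-/- with ProteinFx (1.33) and had -0.40 with EVFx, while Cebpa, a myeloid transcription factor, was lower with EVFx (-1.14) and did not pass with ProteinFx (0.58). Gas6 ran from 23.8 to 44.9 CPM in RNY1+/+ ProteinFx and from 48.2 to 135 in RNY1-/- ProteinFx. Adgre1, which encodes the macrophage marker F4/80, crossed in the reverse direction (0.28 and -0.38, named after its values were seen). Pattern recognition receptors had 4 positive and 8 negative calls of 28 (4 and 7 with trends removed, 0 and 3 without RNY1-/- ProteinFx 1 and 2), and their crossing members were Ifih1, lower with ProteinFx, and Clec4n, the receptor Dectin-2, higher with it. Clec4n had 148 to 167 CPM in RNY1+/+ EVFx and 86 to 115 in RNY1-/- EVFx, and 3.99 to 11.9 and 9.99 to 21.3 in the ProteinFx groups, which overlapped. Immediate early genes had 4 positive and 6 negative calls of 22, but 0 and 9 with trends removed, and 1 and 0 without RNY1-/- ProteinFx 1 and 2. Alternative activation genes had 3 and 0 of 14, among them Clec10a at 1.56 and Tfec at 0.75, and 0 without those libraries. Chemokine receptors had 1 and 0 of 6 (Cxcr4 at 1.18), which stayed called. Clec4n and Adgre1 were not called without RNY1-/- ProteinFx 1 and 2 (edgeR adjusted p = 0.089 and 0.053).

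The remaining lists had calls in both directions or few calls, where 33.1% of all genes were called. NRF2 antioxidant (52.9%), cholesterol efflux (45.5%) and endoplasmic reticulum stress genes (38.9%) had larger shares, and the other lists lay near or below it. Calls were 1 positive and 4 negative of 15 for matrix metalloproteinases and coagulation, where Mmp13 and Mmp14 had -1.65 and -1.03 and the matrix protein gene Thbs1 crossed (0.63 and -0.65). They were 5 and 4 of 17 for NRF2 antioxidant genes, with Gsr, the glutathione reductase, at -1.12 and the pentose phosphate enzyme Taldo1 at 1.05. Endoplasmic reticulum stress genes had 6 and 1 of 18, ribosome biogenesis 6 and 1 of 37, cholesterol efflux 2 and 3 of 11, and ATF4 targets 2 and 2 of 19. MHC class I presentation had 1 and 3 of 20, ferritin and iron 1 and 2 of 13, heat shock 1 and 1 of 14, cell cycle 0 and 2 of 20, and nuclear-retained and histone transcripts 1 and 3 of 12. Without RNY1-/- ProteinFx 1 and 2, none of these 11 lists had more than 3 calls, and 5 of them had 0. Y RNA-binding proteins had 2 and 1 of 13, with an effect that passed with EVFx alone in all 3. These were Ptbp1 (0.89), Elavl1 (-0.63) and Puf60 (0.71), and none of the 3 was called without both RNY1-/- ProteinFx 1 and 2. Puf60 also lost its call without RNY1+/+ EVFx 4, RNY1-/- EVFx 4, RNY1+/+ ProteinFx 1 or 4, or RNY1-/- ProteinFx 1 or 2.

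Rab14, Arpc2 and Cltc, which served as reference genes in the study, had interactions of -0.04 (0.11), 0.05 (0.13) and -0.02 (0.12), within their standard errors of 0. The paper chose them from this sequencing for small changes between the ProteinFx genotypes, so effects near 0 with ProteinFx follow from that choice. With trends removed the interactions were 0.31, 0.14 and 0.34. Among marker genes of other cells, Krt8 and Krt18, keratins of epithelium, had negative called interactions (-1.76 and -1.50) at mean levels of 4.9 and 7.55 CPM, and neither was called without RNY1-/- ProteinFx 1 and 2 (edgeR adjusted p = 0.26 and 0.38). The summed level of 6 epithelial markers was 5.32 to 11 CPM in RNY1+/+ EVFx, 9.94 to 30.7 in RNY1-/- EVFx, 11.9 to 30.5 in RNY1+/+ ProteinFx and 7.46 to 19.5 in RNY1-/- ProteinFx, and its part in any other result was not tested. Epcam and Cdh1 stayed at or below 3.29 CPM.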

How the data were processed

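RNA of 20 BMDM libraries was sequenced from the 3′ end with unique molecular identifiers by a service provider, per the labels with fastp 0.24.0, STAR 2.7.11 on GRCm39, and Subread 2.1.1 (featureCounts), with reads of several places shared as fractions. The authors deposited expected counts, not normalized, and a CPM column, in which the authors scaled each count by its library's total. Expected counts were rounded to whole numbers, and 92 spike-in rows were left out. Counts of 16 libraries were scaled by TMM and fitted with edgeR 4.0.16 (glmQLFit, glmQLFTest) with 1 mean per group, on genes that passed filterByExpr and whose average over these libraries reached 3 CPM, with Benjamini-Hochberg adjustment over all genes tested. Standard errors are the estimate over the square root of F. The same fit gave the effects within each fraction. Lengths and GC contents came from GENCODE transcripts of GRCm38, for 96.9% of the genes tested, and positions are on that build. Trends were removed library by library with natural splines (4 degrees of freedom).

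Members and lists were chosen with earlier results of these data known. Named genes are the 10 crossing genes per direction with the largest interaction at 10 CPM or more, without overlap and kept with trends removed, 3 per direction not so kept, the 5 highest and 5 lowest interactions, up to 4 called members of each of 27 lists, and the study's qPCR targets and reference genes. Counts stand for molecules, and 3 counts were taken as the floor. Depth bounds precision, since the smallest library held 2510005 counts. In simulated interaction data over 16 libraries (10442 genes, 200 changed), edgeR recovered 69 of 100 genes changed by 1 and 99 of 100 changed by 2 on the log2 scale, with 6 false calls. The simulated counts had the same spread in all genes and groups, without GC trends or a split within RNY1-/- ProteinFx. The number of false calls in the real data cannot be read from them. Alternatives covered DESeq2 1.42.0, limma 3.58.1 (voom), scaling, filters, depth, a replicate block, trend removal and libraries left out. R 4.3.3, python 3.11.15 and matplotlib 3.10.9 were used. Some genes that the rule names are not reported here.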

Additional observations from a re-analysis of the deposited data

Results flagged for a closer look

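The genotype effect differed between EVFx and ProteinFx for 3453 genes by the interaction test itself, as described above.

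Among 164 groups of 4 libraries over 41 genes and list sums, 6 had a library far from the other 3, and chance marks about 1 group in 20. Arhgap45 was low in RNY1+/+ ProteinFx 4 at 14.6 CPM, and H2-Eb1 was low in RNY1+/+ ProteinFx 2 at 6.59 CPM. Itgb5 was low in RNY1-/- EVFx 3 at 7.88 CPM. Ftl1-ps1 was high in RNY1+/+ EVFx 4 at 54.9 CPM, and Plpp1, a lipid phosphatase, was high in RNY1+/+ ProteinFx 4 at 59 CPM. The summed level of NF-kB targets was 21400 CPM in RNY1+/+ EVFx 3, apart from the other libraries of its group.

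Spike-in transcripts, which no comparison used, reached 30.5 CPM in RNY1-/- EVFx 3 and 28.4 CPM in RNY1+/+ ProteinFx 2, above the highest PBS library at 24.2 CPM.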

How the results depend on the processing

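Replicate numbers were not taken to pair the libraries, since of 24 same-number pairs between groups 12 had a correlation of deviations above 0.1 (range -0.401 to 0.412). Between RNY1-/- EVFx and RNY1-/- ProteinFx, though, all 4 pairs were above it (0.223 to 0.412), and 8 of 16 libraries correlated best with their own number. With the replicate block 3472 interactions were called. Of 127 named genes with a call, 106 kept it without each of the 16 libraries, and 73 lost it without RNY1-/- ProteinFx 1 and 2. In 43 genes the call was kept in each of the 33 other fits that tested the gene. Some of these, such as H2-DMa, were not tested in every fit. Interaction calls were 2036 with all 20 libraries in the fit, 1863 after thinning to the smallest library, 2148 with trends removed, 350 and 5664 without RNY1-/- ProteinFx 1 and 2 or 3 and 4, and 242 without 1 and 2 with trends removed. Those above 1 on the log2 scale were 1404 with no filter, 423 at 10 CPM or more, 422 with trends removed, 449 with block and trends removed, 101 and 1899 without the pairs and 69 without 1 and 2 with trends removed. Calls with opposite signs were 1877, 1656, 1825, 1926, 253, 5251 and 166 with all libraries, thinning, trends removed, block and trends removed, without 1 and 2, without 3 and 4, and without 1 and 2 with trends removed. Crossing genes were 209 with total counts, 253 with no filter, 52 with all libraries, 58 after thinning, 22 and 1631 without the pairs, and 19 and 900 without the pairs with trends removed. The causes of these shifts were not tested. The fits without a pair, trends removed, were chosen after seeing the data.

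With 1 library left out, calls ran from 1917 to 4627, those above 1 from 484 to 1210, those of opposite sign from 1594 to 4153 and crossing genes from 41 to 415. Calls fell past 1.5-fold without RNY1+/+ EVFx 4 (2296) and RNY1-/- ProteinFx 1 (2144) or 2 (1917). Those above 1 did so without RNY1-/- ProteinFx 1 (539) or 2 (484), as did those of opposite sign (1824 and 1594). Crossing genes were 67 without RNY1+/+ EVFx 4, 85 and 68 without RNY1-/- EVFx 1 and 4, 92, 77 and 45 without RNY1+/+ ProteinFx 1, 2 and 4, and 41, 51, 415 and 290 without RNY1-/- ProteinFx 1 to 4. Scaling by total counts moved the median interaction to 0.165 and the positive share of calls from 50.8% to 73.5%. With no filter that share was 60.6%.

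The interaction changed sign in 6 named genes. Puf60 was -0.0545 (without 1 and 2, trends removed). Arpc2 was -0.0513 without 1 and 2 and -0.00905 with trends removed too. Erap1 was 0.0223 with trends removed, 0.0175 with the block as well and 0.0792 without 3 and 4, trends removed. B2m was 0.0374 without 3 and 4, trends removed. Rab14 was 0.117 with total counts, 0.0428 with no filter, 0.00806 at 10 CPM, 0.311 with trends removed, 0.306 with block and trends removed, 0.0139 without 3 and 4, and 0.115 and 0.497 without the pairs with trends removed. Cltc was 0.14, 0.0633, 0.03, 0.342 and 0.343 in the first 5 of these, 0.015 without 1 and 2, 0.213 and 0.477 without the pairs with trends removed, and ran from -0.0584 to 0.0282 with 1 library left out.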
